A study of Drosophila melanogaster with 8 samples.

Results

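The stretch of chromosome arm 2L between 15 and 18 Mb was described here for its enrichment in linker histone H1, as mapped by ChIP-seq. Its members were the 542 regions of the authors' combined list of H1-enriched regions whose midpoint lay between 2L positions 15000001 and 18000000 (FlyBase r5). They made up 3.35% of the 16190 regions of that list and 18.4% of the regions on 2L, in 13% of the length of the arm. The block was chosen by its covered share, that is, bases inside enriched regions over all bases: its first and last megabase had the highest shares on the major chromosome arms. Covered share, region number and the measures tied to them are therefore given as descriptions, with no test.

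H1 was mapped in whole embryos, aged 14 to 16 h, of the Oregon-R strain (Oregon-R-modENCODE, genotype wild type). There are 4 libraries of H1 immunoprecipitation and 4 of input chromatin, with no mutant or treated group. Flies were kept in population cages and whole embryos were fixed with formaldehyde, so each library mixes all cell types of the late embryo. The labels do not state whether replicates were separate collections of embryos, and their spread may be technical.

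Linker histone H1 binds the nucleosome where DNA enters and leaves it, together with the linker DNA between nucleosomes. It helps to fold nucleosome arrays and is a general component of compact, silent chromatin. In Drosophila it is needed for the structure of pericentric heterochromatin and of polytene chromosomes, and it is depleted from the start sites of active genes.

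The replicate lists held 2820, 2185, 2886 and 3410 regions in all for replicates 1 to 4, of which 137, 106, 155 and 154 lay in the block. The lists give positions and 1 score per region without read counts. Sequencing depth is therefore unknown, and a place without a region is not shown to lack H1. Replicate 2 had the shortest list, and its low counts recur in the values below. No region of 2L had the same start and end in 2 replicate lists (0 cases).

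The block was not uniformly dense. It consisted of 2 densely covered stretches with a sparse stretch of 0.7 Mb between them, and the dense sequence ran past both of the chosen limits. In bins of 100 kb of the combined list, the first dense stretch reached from 15 to 16.2 Mb and was covered at 46.9%. From 16.2 to 16.9 Mb coverage fell to 15.2%, and from 16.9 to 18 Mb it was 50.0%. The rest of 2L was covered at 23.6%, with a median of 18.8% over its 200 bins, of which 122 (61.0%) were under 23.6%. The sparse stretch was picked as the longest run of block bins under that share, so lying below it follows from the choice. The label of a single dense block thus held for the outer megabases and not for the middle one.

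**Figure D1:**
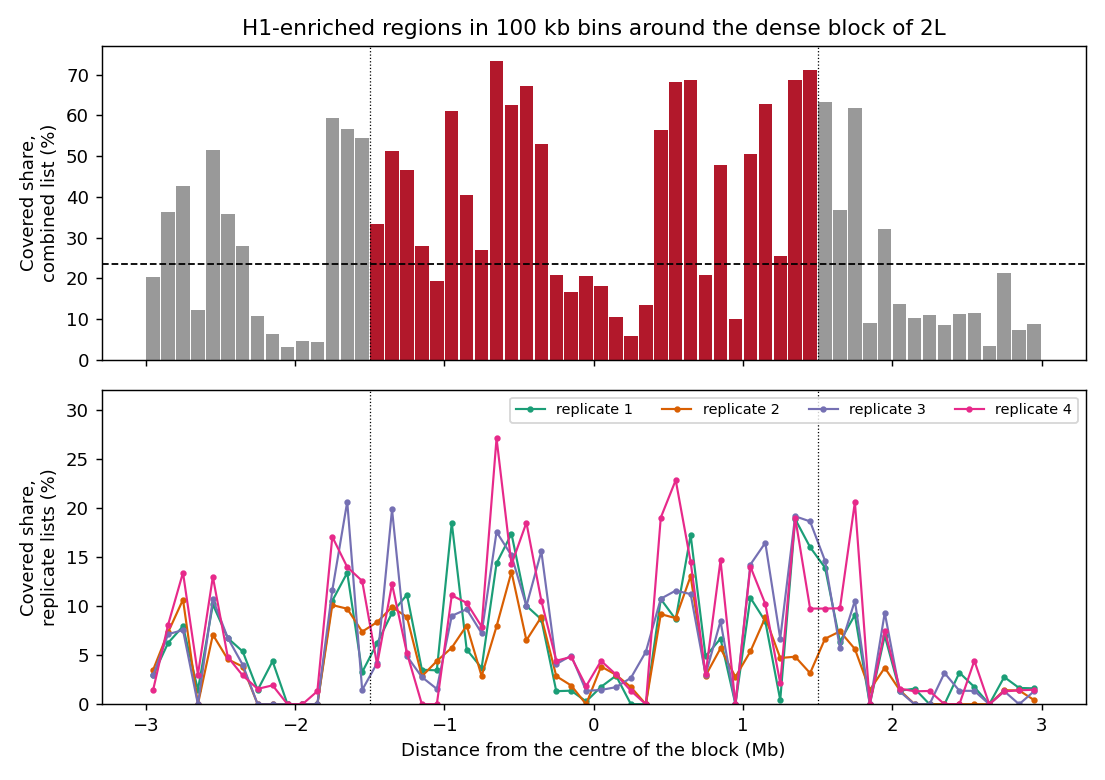
Covered share (%) in bins of 100 kb against distance from the centre of the block (Mb), for the combined list (upper panel, bars, block in red) and for each replicate list (lower panel, lines). Dotted lines mark the limits of the block and the dashed line the 23.6% of the rest of 2L. The bars fall to between 5.96% and 20.9% just around and to the right of the centre, and stay above 50% for 300 kb to the left of the block.

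The same order was seen in each library. The first dense stretch was covered at 9.32%, 7.33%, 9.80% and 10.1% in replicates 1 to 4. The sparse middle stretch had 1.10%, 1.91%, 3.09% and 2.85%, and the second dense stretch 9.35%, 6.31%, 10.9% and 11.8%. No value of the middle stretch reached a value of either dense stretch. The rest of 2L was covered at 3.57%, 2.73%, 3.60% and 4.53%, so the middle stretch lay below it in 4 of 4 libraries, at 0.62 ± 0.23 times its share (SD, n = 4). The dense stretches stood at 2.56 ± 0.22 and 2.64 ± 0.30 times the rest of 2L (SD, n = 4). Since the stretches were drawn from the combined list, which is not independent of the replicates, these folds carry no test.

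The megabase windows showed the same split. The window from 15 to 16 Mb was first or second of the 23 windows of 2L in 4 of 4 replicate lists, and so was the window from 17 to 18 Mb. The middle window, from 16 to 17 Mb, ranked from 4th to 14th, with 3.71%, 3.80%, 5.80% and 6.80% in replicates 1 to 4. In the combined list it was covered at 28.3% and ranked 10th, close to the median of 25.8% over the windows of 2L. Just inside the limits the combined list covered 44.3% (15 to 16 Mb) and 49.4% (17 to 18 Mb), and just outside them 26.4% (14 to 15 Mb) and 25.8% (18 to 19 Mb). As a whole, the block was the most covered span of 3 Mb on 2L in each replicate list, of 21 spans that start at whole megabases. Its shares of 7.41%, 5.69%, 8.65% and 9.02% compare with 5.10%, 3.89%, 5.24% and 7.02% for the next most covered span that did not overlap it.

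The dense sequence ran past both chosen limits, with a sharper end on the left than on the right. On the left, the combined list covered 56.9% of the 300 kb from 14.7 to 15 Mb, and only 5.84% of the 500 kb before it (14.2 to 14.7 Mb). The 300 kb before the block held 15, 16, 18 and 26 regions in replicates 1 to 4, covering 9.07%, 9.08%, 11.2% and 14.5%. The 500 kb further left held 4, 0, 0 and 3. The longest gap on 2L in the combined list, 153 kb at 2L 14418030-14571494, lay in that sparse flank. On the right, coverage stayed at 53.9% from 18 to 18.3 Mb and dropped to 9.03% in the next 100 kb, where replicate 2 had a single region and the other libraries had 0. The next bin, 18.4 to 18.5 Mb, was back at 32% in the combined list and at 6.99%, 3.72%, 9.33% and 7.52% in replicates 1 to 4, above the rest of 2L in each list. The drop on the right was thus broken by this single bin. From 18.5 to 19.6 Mb every bin was again under the 23.6% of the rest of 2L, at 3.30% to 21.3%. The dense right-hand sequence was interrupted near 18.1 Mb by a gap of 37.2 kb, at 2L 18125572-18162733.

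With bins of 50 kb the left edge remained at 14.7 Mb and the right end of the sparse stretch at 16.9 Mb, but the right edge moved in to 18.1 Mb and the sparse stretch shortened to 16.6 to 16.9 Mb. With bins of 200 kb the edges fell at 14.6 and 18.4 Mb and the sparse stretch at 16.2 to 16.8 Mb. No combined region crossed either chosen limit. The nearest regions were 2L 14983870-14984875 (1006 bp) and 2L 15012529-15013637 (1109 bp) on the left, and 2L 17994953-17999648 (4696 bp) and 2L 18000018-18001598 (1581 bp) on the right. The right limit thus cut through closely spaced regions.

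Coverage also varied sharply from bin to bin inside the dense stretches, from 10.0% to 73.4% in the combined list. Over all 30 bins of the block, the sparse middle stretch included, it ran from 5.96% to 73.4%, with a median of 43.6%. In 13 of the 30 (43.3%) at least 50% of the sequence was covered, against 20 of 200 bins (10.0%) in the rest of 2L. The rest of 2L here includes the dense sequence just outside the limits, covered at 56.9% on the left and 53.9% on the right. Of the 10 most covered bins of the arm, 6 lay in the block, and a further 1 in the dense sequence just to its right. The bin from 15.8 to 15.9 Mb had the highest share of the block in the combined list, and 14.4%, 7.94%, 17.6% and 27.1% in replicates 1 to 4. Of the replicate lists, replicate 4 alone had its highest share there. Replicates 1, 2 and 3 had theirs at 17.8 to 17.9 Mb (18.9%), 15.9 to 16 Mb (13.5%) and 15.1 to 15.2 Mb (19.9%). The most covered bin of the arm lay elsewhere, at 11.6 to 11.7 Mb, with 74.8% in the combined list, so single bins as dense as those of the block occur outside it.

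Of the 30 bins of the block, 10 (33.3%) fell below the level of the rest of 2L, against 122 of 200 (61.0%) in the rest of the arm. The sparse middle stretch held 7 of the 10, and 3 lay within the dense stretches. These 3 were 15.4 to 15.5 Mb at 19.3%, 17.2 to 17.3 Mb at 20.7% and 17.4 to 17.5 Mb at 10.0% of the combined list. The last of these held a region in replicate 2, which covered 2.79% of it, and none in the other replicates (0%). The bins on either side of it were covered at 47.9% and 50.4%. Covered share by bin correlated between libraries about as well in the block as in the rest of the arm. Over the 30 bins, Pearson's r between 2 replicates was 0.58 to 0.76 and Spearman's rho 0.65 to 0.81 for the 6 pairs. In the 200 bins of the rest of 2L, r was 0.67 to 0.75 and rho 0.63 to 0.72. Bins are not replicates, and the points of a pair share their libraries and the dense stretches. The values of the block include the contrast between its dense and sparse stretches. No correlation was computed within the dense stretches alone, so recurrence of their finer profile was not tested.

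In the replicate lists, the higher coverage of the block went with more regions and not with wider ones. Its covered share was 2.14 ± 0.18 times that of the rest of the arm (SD, n = 4), and its number of regions per Mb 2.14 ± 0.19 times. There were 45.7, 35.3, 51.7 and 51.3 regions per Mb in replicates 1 to 4, and 21.3, 16.9, 21.7 and 26.6 in the rest of 2L. Every library thus had more in the block than any had in the rest of the arm. Median widths were 1507, 1509.5, 1563 and 1565 bp in the block and 1531, 1503, 1523.5 and 1565 bp in the rest. The groups overlapped, and the log2 ratio of the medians was 0.005 ± 0.025 (SD, n = 4).

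The combined list differed from its replicates in this respect. There the median member was 1805.5 bp wide, against 1636 bp in the rest of 2L, and 114 of the 542 members (21.0%) spanned 3000 bp or more, against 323 of 2411 regions (13.4%). The fold of covered share, 1.72, was smaller than in the replicate lists, and so was that of region number, 1.5.

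**Figure D2:**
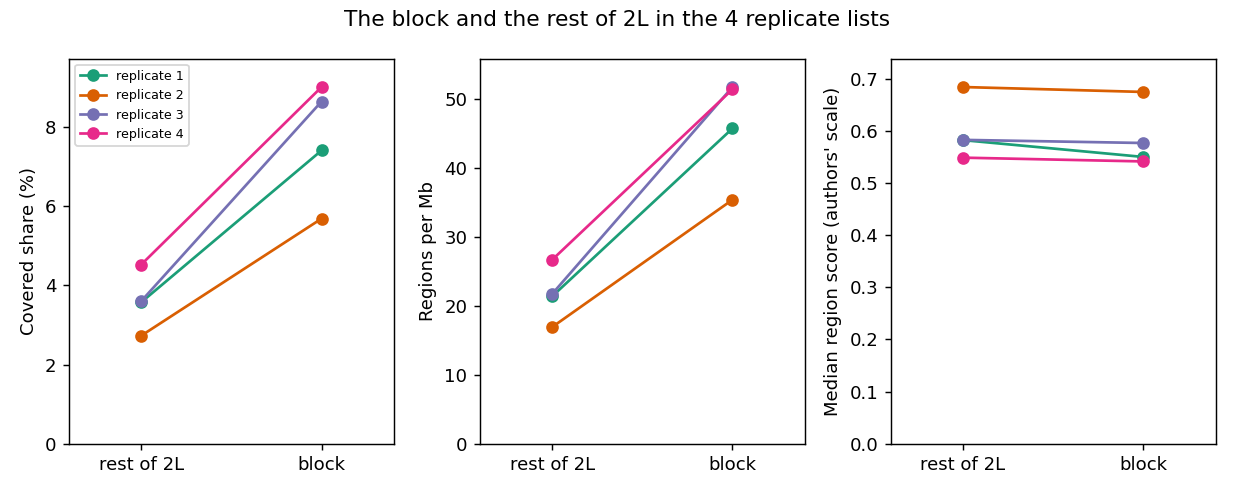
Covered share (%), regions per Mb and median region score of the rest of 2L and of the block, with 1 line for each replicate list. Covered share rises from between 2.73% and 4.53% to between 5.69% and 9.02%, while the median score is slightly lower in the block in each list.

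The authors' score did not choose the block and could be compared on its own, as a ratio within each list. Scores were slightly lower in the block although it was more densely covered. The median score was 0.550, 0.675, 0.577 and 0.541 in the block and 0.582, 0.684, 0.583 and 0.549 in the rest of 2L for replicates 1 to 4. The block was lower in 4 of 4 libraries, with a log2 ratio of -0.034 ± 0.032 (SD, n = 4), of which replicate 1 contributed -0.082 and each of the others between -0.020 and -0.015. Without replicate 1 the mean was -0.018, and with only the regions at or above each list's median score it was -0.0094. A two-sided exact permutation test that flips the signs of the 4 ratios gave p = 0.13, the smallest that 4 libraries allow, so the difference could not pass 0.05. In the combined list the medians were 0.385 and 0.391. The sources used here do not give what the score measures, so a lower score does not show that H1 was weaker in the block.

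Neighbouring regions lay closer together in the block. In the replicate lists the median gap was 7999, 13422, 7607 and 7011 bp, against 16122, 22923.5, 15875 and 12078 bp in the rest of 2L. The ratio was 0.54 ± 0.06 (SD, n = 4), and the block had the shorter median gap in 4 of 4 libraries. In the combined list the median gap was 1149 bp, with quartiles of 423 and 2917 bp, against 1899 bp in the rest, with quartiles of 679 and 5605 bp. Regions were unevenly spaced on both sides of the limits. The coefficient of variation of the gaps, which would be near 1 for regions placed without clumping, was 1.97 in the block and 2.06 in the rest of 2L. Over the replicate lists it was 1.67 ± 0.33 and 1.62 ± 0.04 (SD, n = 4), and the replicate values of the block, 1.28 to 1.97, spanned those of the rest. The block had the higher coefficient in replicates 1 and 4 and the lower one in replicates 2 and 3, and the difference was not tested.

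**Figure D3:**
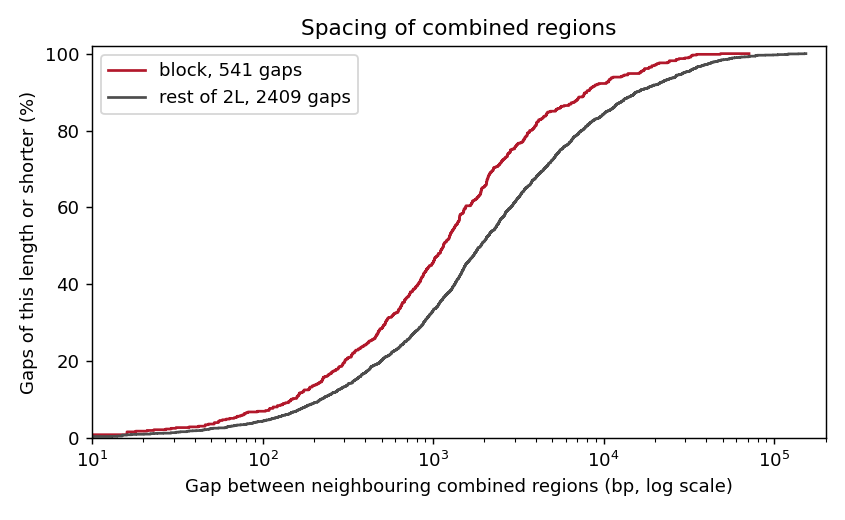
Cumulative share (%) of gaps between neighbouring combined regions by length (bp, log scale from 10 bp), for the block (541 gaps) and the rest of 2L (2409 gaps). The curve of the block lies to the left, with medians of 1149 and 1899 bp.

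The 3 longest gaps inside the block lay at 2L 16261208-16332401 (71.2 kb), 2L 17456671-17505095 (48.4 kb) and 2L 16699546-16734615 (35.1 kb). The first and last of these are in the sparse middle stretch and had 0 regions in each replicate list. The gap of 48.4 kb was touched by 1 region of replicate 1 and 1 of replicate 3 and by none of the others. In the rest of 2L, 18 of 2409 gaps were longer than the longest gap of the block.

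Closely spaced members formed long runs. When combined regions less than 5 kb apart were joined, 60.9% of the regions in the block belonged to runs of 50 kb or more, against 27.0% in the rest of 2L. The longest run of the whole arm, 2L 16922864-17144560, held 63 regions over 222 kb, began just right of the sparse stretch and was covered at 70.7% in the combined list. The replicate lists covered it at 12.5%, 11.1%, 11.3% and 21.0%, so all 4 lists had regions in it, with the largest share in replicate 4. The next longest of the arm, 2L 15121784-15251774, held 39 regions over 130 kb and was covered at 11.6%, 11.2%, 17.9% and 13.4%.

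Other long runs were less evenly supported. The run at 2L 15772191-15900772 (40 regions over 129 kb) had 14.0%, 8.40%, 19.3% and 25.3% in replicates 1 to 4. The run at 2L 17825651-17946920 (33 regions over 121 kb) had 23.8%, 2.77%, 22.4% and 10.9%, with replicate 2 far below the others. These runs ranked 4th and 5th on 2L by length. Joined at 2 kb, the longest run of the block spanned 62.3 kb, and at 10 kb it spanned 367 kb. The corresponding longest runs of the rest of the arm spanned 60.3 kb and 276 kb.

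Replicate support was then read for the members. Of the 542, 317 (58.5%) were touched by at least 1 base of 1 or more replicate lists, where the rest of 2L had 45.6% and all combined regions together 44.2%. Members touched by 3 or more lists numbered 45 (8.30%), against 3.65% in the rest of 2L and 3.56% over all combined regions. Those touched by all 4 lists numbered 12 (2.21%), against 0.705% in the rest of 2L and 0.729% over all combined regions. The remaining 225 members (41.5%) were touched by none. Replicates 1 to 4 touched 126, 97, 135 and 145 members, or 23.2%, 17.9%, 24.9% and 26.8%. They touched 16.8%, 12.03%, 16.01% and 20.7% of the combined regions in the rest of 2L. Density was not removed from these counts: a list with more regions can touch more members, and each list has more regions per Mb in the block. The counts of high support depended on the overlap asked for. When at least 50% of a member had to be covered, 0 members were supported by all 4 lists and 3 (0.55%) by 3 or more, against 0.62% in the rest of 2L, while 40.8% and 33.7% were supported by 1 or more.

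Width also moves with support. Members touched by no list had a median width of 1370 bp, and those touched by 1, 2, 3 and 4 lists had medians of 1851, 2796, 4094 and 4906.5 bp. Within each width class support by 1 base was also higher in the block than in the rest of 2L, without a test. Among regions of 3000 bp or more, 35 of 114 (30.7%) were touched by 3 or more lists in the block and 62 of 323 (19.2%) in the rest. Among those from 1500 bp up to that width, the counts were 9 of 237 (3.80%) and 25 of 1047 (2.39%). Regions under 1500 bp were touched by 3 lists in 1 of 191 and 1 of 1041 cases.

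**Figure D4:**
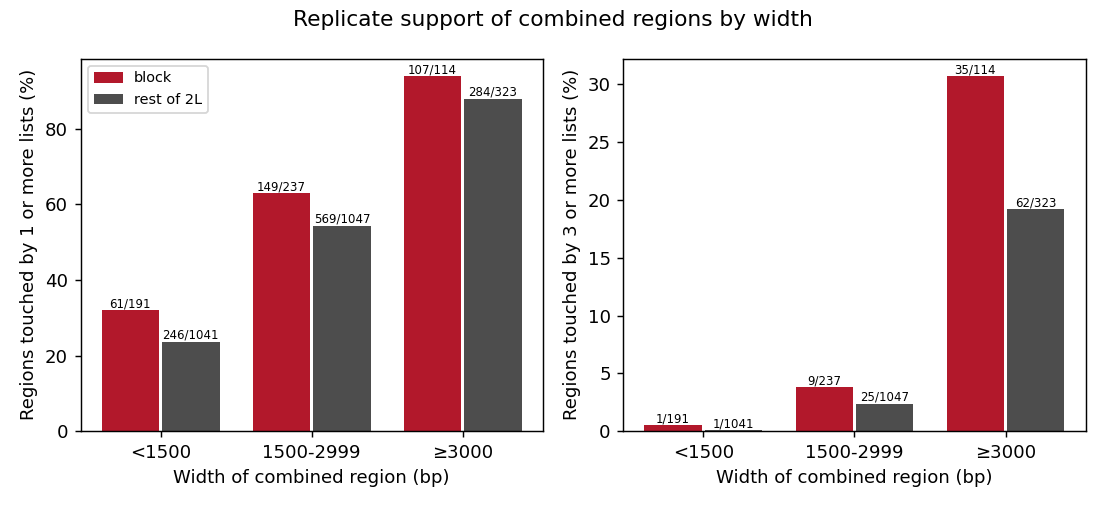
Share (%) of combined regions touched by 1 or more (left) and by 3 or more (right) replicate lists, by width in bp, for the block (red) and the rest of 2L (grey), with counts above the bars. Among regions of 3000 bp or more, 30.7% of the block and 19.2% of the rest of 2L were touched by 3 or more lists.

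All 12 members touched by every replicate list are given here. The first dense stretch held 5 of them, at 2L 15134577-15139809, 15649916-15652163, 15944270-15948821, 16015478-16019538 and 16132156-16139229. The widest of these, 2L 16132156-16139229 (7074 bp), was covered at 34.9%, 20.6%, 21.9% and 42.4% by replicates 1 to 4. Support could be slight: replicate 3 covered 0.62% of 2L 15649916-15652163, where replicates 1, 2 and 4 covered 58.5%, 6.32% and 74.4%.

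The second dense stretch held 6, of which 4 lay within 70.3 kb at its left end, inside the longest run: 2L 16938232-16942913, 16974116-16976519, 16996960-17002090 and 17003038-17008529. The others were 2L 17120569-17127034, also in that run, and 2L 17877214-17884123. The region 2L 16938232-16942913 (4682 bp) was covered at 60.1%, 28.4%, 65.3% and 48.4% by replicates 1 to 4. The highest score of the 12, 0.505, belonged to 2L 16974116-16976519 (2404 bp), which was covered at 75.4%, 31.5%, 45.3% and 68.0%. The sparse middle stretch held 1, 2L 16666901-16670696 (3796 bp), covered at 41.7%, 59.1%, 45.9% and 44.7%. No other of the 12 had at least 41.7% of its length in each list, and the stretch around it held only 5, 7, 15 and 12 regions in the replicate lists. However, no base of the sparse middle stretch was in all 4 lists, so the lists covered partly different sequence of this member.

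Bases common to every library were few. The 4 replicate lists together covered 24.8% of the block. Of those bases 79.6% were in 1 list, 17.0% in 2, 3.05% in 3 and 0.33% in all 4. In the rest of 2L, 12.2% of the sequence was covered by any list, and the corresponding shares were 83.8%, 14.6%, 1.42% and 0.16%. The bases common to all 4 lists in the block amounted to 2.455 kb in 5 places. The longest was 2L 16938809-16940139 (1331 bp), followed by 2L 17005094-17005810 (717 bp) and 2L 16974460-16974819 (360 bp), all in the longest run. The other two were 33 and 14 bp long, and 7 of the 12 members touched by all lists had no base common to all 4.

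Regions of one replicate met those of another more often in the block. The share of a list's regions touching at least 1 other list was 56.9%, 56.6%, 54.8% and 55.2% in the block for replicates 1 to 4, and 48.0%, 45.0%, 45.6% and 43.0% in the rest of 2L. The values did not overlap. The gap narrowed when only regions at or above each list's median score were kept, with mean shares of 26.3% in the block and 25.2% in the rest. A denser stretch gives more contacts by its density alone. The shared bases of each pair were therefore also divided by the product of the covered shares of both lists and the length. Lists placed independently and at even density give a ratio near 1. Lists that share only their dense and sparse stretches give more than 1 over a whole span. At equal sharing of regions the ratio also falls as coverage rises. This ratio was 1.97 ± 0.31 in the block and 3.13 ± 0.16 in the rest of 2L (SD over 6 pairs), lower in the block for 6 of 6 pairs. Shared bases over the bases in either list of a pair went the other way, at 8.08% ± 1.73 in the block and 5.87% ± 0.83 in the rest of 2L (SD over 6 pairs), higher in the block for 5 of 6 pairs. Both measures move with coverage, so they do not show whether the lists shared more or less in the block.

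Taking the product within each bin of 100 kb, so that dense and sparse bins are each set against their own coverage, brought both values down and together. The ratio was then 1.45 ± 0.26 in the block and 1.67 ± 0.10 in the rest of 2L (SD over 6 pairs), lower in the block for 5 of 6 pairs. The exception was the pair of replicates 2 and 3, with 1.90 in the block and 1.59 in the rest. Replicates 1 and 2 had the lowest ratio in the block, 1.15. Bins of the block were still more covered than those of the rest, and this ratio too falls with coverage at equal sharing. Pairs share libraries, so no test was made.

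**Figure D5:**
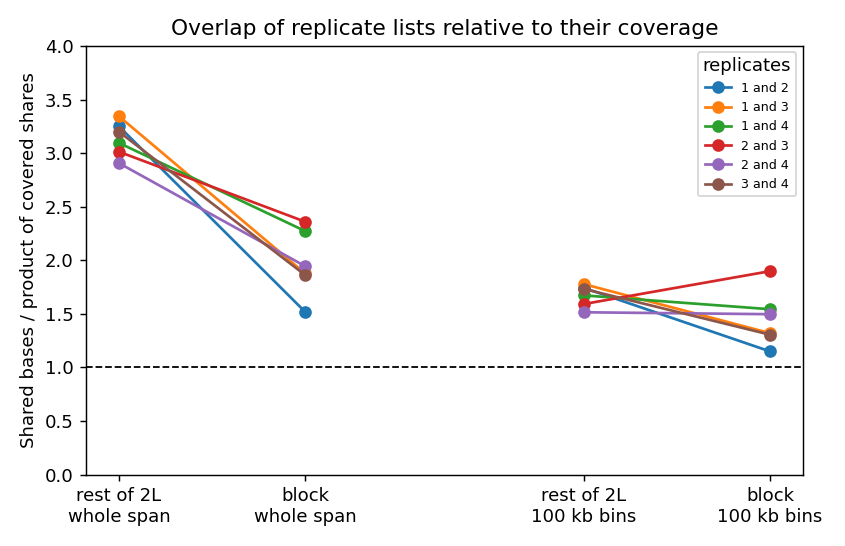
Shared bases of 2 replicate lists divided by the product of their covered shares and the length, for the 6 pairs of replicates, over the whole span (left) and with the product taken in bins of 100 kb (right). The dashed line marks 1, the value near which independent lists of even density would lie. Uneven density shared by both lists raises the whole-span values above it. Over the whole span the mean falls from 3.13 in the rest of 2L to 1.97 in the block, and in bins it is 1.67 and 1.45.

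The combined list held the regions of replicates 1 and 4 more fully than those of the other libraries, in the block as in the rest of the arm. It touched 134 of 137, 89 of 106, 135 of 155 and 153 of 154 block regions of replicates 1 to 4, that is 97.8%, 84.0%, 87.1% and 99.4%. In the rest of 2L the shares were 96.5%, 78.1%, 81.6% and 97.6%. By bases, 95.6%, 61.5%, 69.1% and 96.9% of the covered block sequence of replicates 1 to 4 lay in combined regions. The members as listed thus represent replicates 1 and 4 better than replicates 2 and 3. Of the 20 block regions of replicate 3 that the combined list did not touch, 4 touched a region of replicate 2. Of the 17 such regions of replicate 2, 1 touched a region of replicate 3. Of the 3 of replicate 1, 0 touched replicate 4, and the 1 of replicate 4 did not touch replicate 1. The sources used here do not give how the replicates were combined.

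The widest members were all in the dense stretches. The first, 2L 17977729-17987987 (10259 bp), lay at the right end of the block and was covered at 18%, 43.8% and 46.5% by replicates 1, 3 and 4 and at 0% by replicate 2. The others were 2L 16019594-16028275 (8682 bp), 17621517-17629619 (8103 bp), 17904916-17912872 (7957 bp) and 17064864-17072707 (7844 bp). Replicate 2 touched none of these 5, replicate 3 touched all of them, and replicates 1 and 4 touched 4 each.

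The 5 highest-scoring members lay within 157 kb of the first dense stretch, from 15672151 to 15828697. They were 2L 15711198-15713158 with a score of 0.783, 15827685-15828697 with 0.735, 15707501-15708550 with 0.709, 15692753-15693950 with 0.655 and 15672151-15673599 with 0.629. They were narrow, from 1013 to 1961 bp. Of the 5, 4 were touched by no replicate list, and 2L 15692753-15693950 was touched by replicate 3 alone, which covered 98.7% of it. Among the 27 members in the top 5% by score, 10 (37.0%) were touched by no list, against 215 of the other 515 (41.7%), and 4 of the 27 were touched by 3 or more lists, against 41 of the 515. The low support of the 5 highest scores thus did not extend to the top 5%. The median score was 0.385 for members touched by no list, 0.375, 0.397 and 0.411 for those touched by 1, 2 and 3 lists, and 0.423 for those touched by all 4. In the rest of 2L the top 5% by score, 121 regions with scores of up to 3.27, were untouched in 61.2% of cases. The other 2290 regions there were untouched in 54.1%. Median width in the top 5% was 1317 bp in the rest of 2L and 2020 bp in the block.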

How the data were processed

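H1-enriched regions were analysed from 4 immunoprecipitated libraries. The submitters' processing notes name Bowtie 0.12.7, a read aligner. Coordinates are FlyBase r5, per the file headers. The authors' deposited lists give start, end and 1 positive score per region. The sources used here do not give the region caller, its thresholds, the normalization of the score or the way replicates were combined. The input libraries were not analysed here. Genes were not analysed because the gene table used is on another build.

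Regions belong to the block by midpoint and covered bases were clipped to its limits. Touching means at least 1 shared base. The stretches were read from 100 kb bins of the combined list: the dense sequence was followed outward while bins held at least the share of the rest of 2L, and the sparse stretch is the longest run of lower bins. The code for interval measures was checked on simulated lists with known answers; the measures themselves carry no test. The score ratio was tested by exact sign-flip permutation over 4 replicates. Regions named are those touched by all 4 lists, the 5 widest, the 5 of highest score, the 3 longest gaps and the regions at the limits; runs, bases common to all lists and bins were named after their values were seen. The members, lists and tests were chosen with earlier results of these data known. Tools were scipy 1.17.1, pandas 2.3.3, numpy 2.4.6, matplotlib 3.10.9 and Python 3.11.15.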

Additional observations from a re-analysis of the deposited data

Results flagged for a closer look

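In 3 of 24 measures of the block and its flanks, 1 replicate stood far from the rest of its group. About 1.2 would do so by chance on average. Several measures rest on the same values, such as covered share and its log2 ratio, so flags can occur together. The 3 flags are thus not shown to exceed chance. The log2 ratio of the median score was -0.082 in replicate 1 and between -0.020 and -0.015 in the others. The median gap in the block was 13422 bp in replicate 2 and 7011 to 7999 bp in the others. In the 100 kb just right of the dense sequence (18.3 to 18.4 Mb), replicate 2 covered 1.457% with 1 region, where the other lists had 0. With 3 lists at 0, any single region sets the fourth apart, so this case is not comparable with the number given by chance.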

How the results depend on the processing

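Of 87 recomputed values, 47 were unmoved, 38 moved beyond 1 SD across replicates or pairs (counts by more than 1.5 times) and 2 changed sign. The log2 ratio of covered share (1.09) was 0.91 when only regions not below their list's median score were kept (the median-score setting), 0.78 in the combined list and 0.93 with limits moved inward by 0.5 Mb, and that of region number (1.09) was 0.94, 0.58 and 0.92 under the same settings. Without 1 replicate they ran from 1.04 to 1.13 and from 1.04 to 1.14. The log2 ratio of median width changed sign, to -0.0257 above the median score and to -0.0055 without replicate 3, and ran up to 0.014 without 1 replicate. The median-score value lies below that of every library as reported. The mean score ratio remained negative under each setting run, from -0.041 to -0.018 without 1 replicate, but shrank to -0.0094 in the median-score setting (exact sign-flip permutation p = 0.5), where the libraries no longer shared a sign.

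The share of block regions touching another list was 26.3% above the median score, 42.5% with equal numbers of regions, 36.2% with 50% of the region covered and 40.6% to 47.0% without 1 replicate. In the rest of 2L it was 25.2%, 37.9%, 29.2% and 31.9% to 38.5%. The median-score setting keeps fewer regions by construction. Shared bases over the product of covered shares were 1.63 in the block and 3.35 in the rest of 2L above the median score, 1.45 and 1.67 by bins of 100 kb, and 1.67 in the block without its sparse stretch. Without 1 replicate they ran from 1.91 to 2.06 and from 3.04 to 3.21.

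Members touched by all 4 lists fell from 12 to 0 both above the median score and with 50% of the member covered, and those touched by 3 or more fell from 45 to 1 and 3. Above the median score the share touched by 3 or more, 0.52%, was below the 1.26% of the rest of 2L, and with 50% covered it was 0.55% against 0.62%. The higher support of the block by 3 or more lists was thus lost under both settings, and the cause was not tested. Support by 1 or more lists was higher in the block under both, at 44.8% against 32.3% and 40.8% against 33.7%. When 1 replicate was left out and the other 3 had to touch, 18 to 27 members were counted. Block regions touched by the combined list fell from 92.1% to 49.5% above the median score and 84.3% with 50% covered. The median gap was 23199 bp above the median score and 7539 to 9676 bp without 1 replicate. Mean r over bins was 0.57 with bins of 50 kb, against 0.68 with 100 kb. Bins of 100 kb for the product and leaving out the sparse stretch were chosen after the data were seen. No paired analysis was possible because no values of the input libraries were analysed here. Depth is unknown, which limits any statement on sequence without regions.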
